A study of Mus musculus with 8 samples.

Results

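Endothelial cells carry the adhesion molecules that leukocytes use to leave the blood, and 9 of their genes are described here: Pecam1, Cdh5, Esam, Icam2, Icam1, Vcam1, Sele, Selp and Ackr1. They were taken by symbol from the deposited table, which holds 18901 genes, and all 9 were found. RNA was sequenced from cheek skin injected with 10 µg of BNP, a natriuretic peptide that evokes scratching, in female mice aged 7 weeks, euthanised 5 h after a 30 min recording. The 4 TBX20fl/fl;K14-Cre mice (knockout mice 1 to 4) carry the floxed Tbx20 allele with Cre driven by the keratinocyte promoter K14, and the 4 littermate TBX20fl/fl mice (control mice 1 to 4) carry the same allele without Cre. Every mouse, control mice included, received BNP, so that no value here describes skin without BNP. Cre driven by K14 acts in keratinocytes, whereas the genes described are mainly those of the vessel wall. Each mouse is 1 library from whole cheek skin, and in such a sample fewer cells of a type and less RNA per cell cannot be told apart.

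Leukocyte exit runs in steps. E-selectin (Sele) and P-selectin (Selp) on activated venules catch passing leukocytes and let them roll, chemokines shown on the vessel wall arrest them, and the immunoglobulin-type proteins ICAM-1, ICAM-2 and VCAM-1 hold their integrins while they spread. PECAM-1, VE-cadherin (Cdh5) and ESAM sit at the contacts between endothelial cells through which the leukocytes pass. Sele, Selp, Icam1 and Vcam1 are raised in endothelium by inflammatory cytokines such as TNF and IL-1, whereas Pecam1, Cdh5, Esam and Icam2 are carried by resting endothelium, and Ackr1, an atypical chemokine receptor, marks venules. Several members are not confined to endothelium. Platelets hold P-selectin, PECAM-1 and ESAM, keratinocytes and leukocytes can express ICAM-1, macrophages and fibroblasts can express VCAM-1, and erythroid cells carry ACKR1.

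Levels are given as FPKM (fragments mapped to a transcript, divided by its length and by the size of the library), the scale on which genes of different length can be compared. Differences between genotypes are log2 fold changes of TBX20fl/fl;K14-Cre over TBX20fl/fl from the deposited estimated counts (edgeR, TMM scaling), each with its standard error, and the Benjamini-Hochberg adjustment was made over all 17124 genes tested. Total counts ranged from 19260856 to 19880654 in knockout mice and from 16056282 to 19617762 in control mice. Tbx20 had at most 2.09 counts in a knockout mouse and 3.01 in a control mouse, so the deletion could not be checked in whole skin. Control mouse 2 stood apart. Its median Spearman correlation with the other mice was 0.844, against 0.957 to 0.984 in the others, and its long transcripts were low, so results are also given without it where it decides them.

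No member differed between genotypes past the threshold, an adjusted p under 0.05. This was so for 0 of the 17124 genes (0%) in edgeR, for 0 of the 15969 genes (0%) that limma tested on log2(FPKM + 1), and for 10 genes in DESeq2, none of them a member. At an unadjusted p under 0.05, edgeR called 0 of the 9 members in either direction (1, Cdh5, when same-numbered mice were paired as a block), against 1012 genes lower in knockout mice (5.91%) and 419 higher (2.45%). This pairing is not part of the stated design and was inferred, on weak grounds, from the same expression data. The FPKM ranges of the 2 groups overlapped for all 9 members. Among the 15969 genes, 307 had every knockout mouse below every control mouse (1.92%), and 870 had every knockout mouse above (5.45%). Fitted fold changes were below 0 for 6 members (Icam1, Icam2, Vcam1, Sele, Selp and Ackr1) and above 0 for 3 (Pecam1, Cdh5 and Esam), with a median of -0.28 over the members and 0.03 over all genes tested. On log2(FPKM + 1) the same 6 were below 0, with a median of -0.08 over the members against 0.12 over all genes tested.

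**Figure D1:**
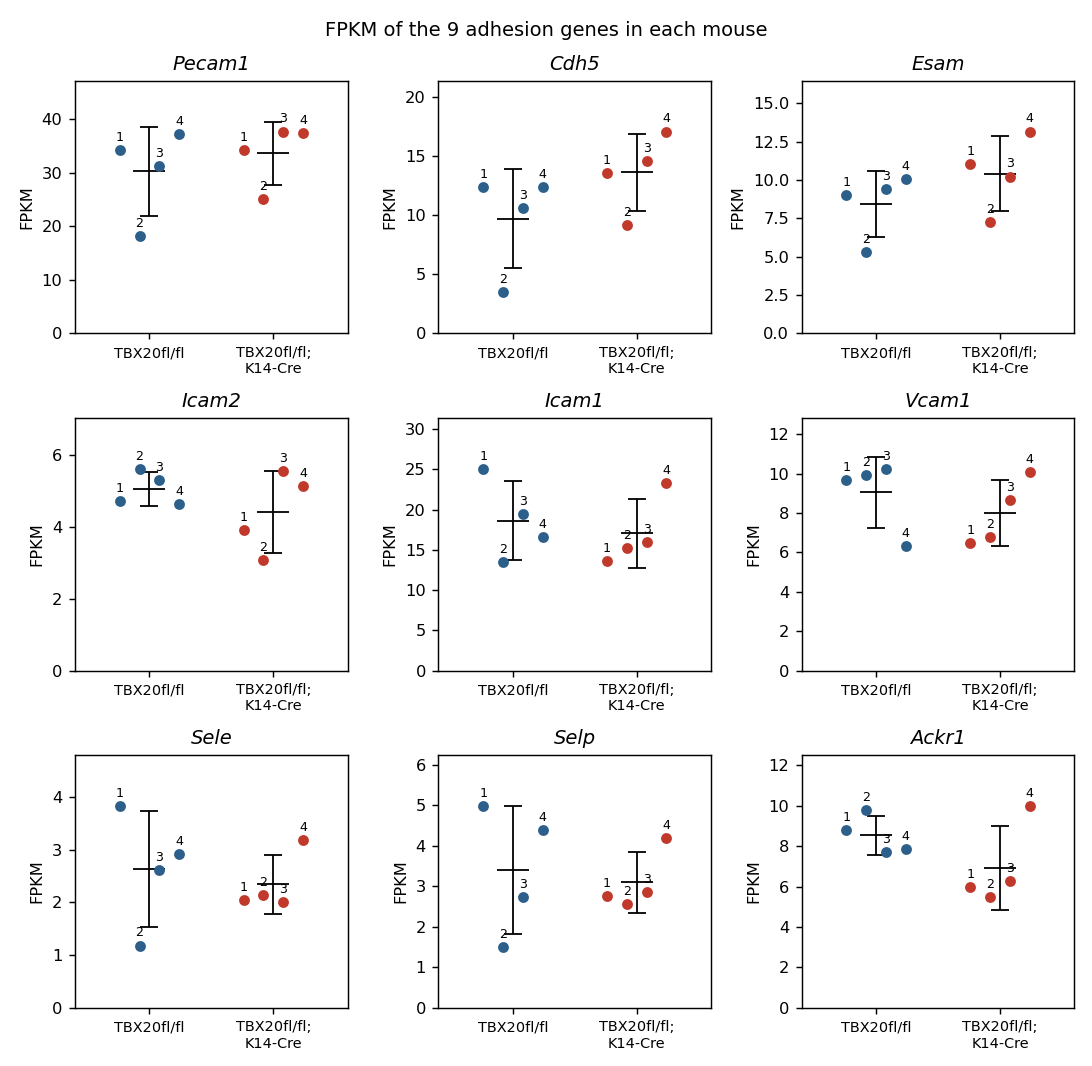
FPKM (vertical axis, from 0) of the 9 adhesion genes in each mouse, with control mice in blue, knockout mice in red and replicate numbers above the points, and with group means and SD (n = 4) as black bars. Knockout mouse 4 was the highest of its group for 7 of the 9 genes, and control mouse 2 was the lowest of its group for 6.

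The promoters of Sele and Selp are shown because the levels of both genes varied together among the mice, and because the genes lie side by side, 56.8 kb apart on chromosome 1. Of the 9 members, 4 (Sele, Selp, Icam1 and Ackr1) had an entry in the RefSeq promoter table, and the 250 bases before the start were read from it (GRCm38.p6, plus strand, 5′ to 3′). For Sele, whose RefSeq promoter lies inside the wider span that the deposited table gives for the gene, the stretch is chr1:164047984-164048233, and for Selp it is chr1:164115014-164115263. Capitals mark a match to GGGANNNNCC on either strand, a loose form of the kappa-B motif with 4 bases left free. Kappa-B sequences are bound by NF-kappa-B, the factor through which TNF and IL-1 act, but a match to the loose form need not be one of them.
Sele: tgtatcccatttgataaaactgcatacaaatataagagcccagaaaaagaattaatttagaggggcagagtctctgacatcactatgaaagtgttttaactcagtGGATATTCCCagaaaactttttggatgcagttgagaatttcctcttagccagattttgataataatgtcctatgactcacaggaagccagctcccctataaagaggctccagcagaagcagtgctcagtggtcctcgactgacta
Selp: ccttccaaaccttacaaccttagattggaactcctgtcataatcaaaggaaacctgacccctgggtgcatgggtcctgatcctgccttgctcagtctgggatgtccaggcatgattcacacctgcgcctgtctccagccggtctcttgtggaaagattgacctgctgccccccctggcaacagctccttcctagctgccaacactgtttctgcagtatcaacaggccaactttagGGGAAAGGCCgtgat
The Sele match lies 145 to 136 bases before the start on the minus strand, and the Selp match 15 to 6 bases before it on the plus strand. In the same 250 bases, 5793 of 32851 promoters in the table (17.6%) held this motif. The Icam1 and Ackr1 stretches held no match, which says only that these letters are not in the window. An AP-1 motif (TGANTCA, the same on both strands) was found 73 to 67 bases before the start of Sele and 139 to 133 bases before that of Selp, and in 6.75% of all promoters. A T-box motif (AGGTGTG on either strand), the kind of sequence that TBX20 and its relatives recognise, was found in Selp alone of the 4, on the minus strand 134 to 128 bases before the start, where it shares 2 bases with the AP-1 match, and in 5.10% of all promoters. These matches describe the sequence and are not shown to be bound in skin.

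Pecam1 (chr11:106654213-106715281, GRCm38), which encodes the junction protein PECAM-1 (CD31), was the most abundant member. Its level was 34.3, 25.1, 37.7 and 37.4 FPKM in knockout mice 1 to 4, and 34.4, 18.2, 31.3 and 37.2 FPKM in control mice 1 to 4. Apart from control mouse 2 and knockout mouse 2, all mice lay above 31 FPKM in both groups. Group means were 33.6 ± 5.88 FPKM in knockout mice and 30.3 ± 8.37 FPKM in control mice (SD, n = 4 each). The fold change from counts was 0.03 ± 0.18 (edgeR adjusted p = 0.93), and it changed sign without control mouse 2 (-0.066), without knockout mouse 3 (-0.028), without knockout mouse 4 (-0.012) and with the trend of transcript length removed (-0.055).

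Cdh5 (chr8:104101613-104144504), which encodes VE-cadherin, the adherens junction cadherin of endothelium, was measured at 13.6, 9.20, 14.6 and 17.1 FPKM in knockout mice 1 to 4. In control mice 1 to 4 it was 12.4, 3.54, 10.6 and 12.4 FPKM. Control mouse 2 lay far below all other mice, and 3 of the 4 knockout mice lay above every control mouse. The means were 13.6 ± 3.30 and 9.73 ± 4.21 FPKM, an FPKM ratio of 1.40 (two-sided exact permutation test over 70 assignments of the mice, p = 0.229). Cdh5 had the largest fold change above 0 of the members, 0.39 ± 0.30 (edgeR adjusted p = 0.53), with a 95% confidence interval from -0.28 to 1.06. Without control mouse 2 the fold change was 0.16, and the control mean was 11.8 ± 1.03 FPKM (n = 3). When same-numbered mice were paired as a block, a pairing inferred from these same data, the fold change was 0.44, with an unadjusted edgeR p of 0.031 and an adjusted p of 0.40.

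Esam (chr9:37528089-37538319) encodes a tight junction protein of endothelium and platelets. Knockout mice 1 to 4 had 11.04, 7.24, 10.2 and 13.2 FPKM, and control mice 1 to 4 had 9.01, 5.31, 9.41 and 10.0 FPKM. As for Cdh5, the mouse numbered 2 was the lowest of each group, and within all 4 same-numbered pairs the knockout mouse was the higher for both genes. A sign-flip test of 4 differences cannot go below an exact p of 0.125, the value that both genes had on FPKM. From counts the fold change of Esam was 0.17 ± 0.20 (edgeR adjusted p = 0.64), and 0.15 with the replicate block (edgeR adjusted p = 0.58). With the length trend removed it was 0.31 without the block (edgeR adjusted p = 0.59) and with it (edgeR adjusted p = 0.46), where only the latter had an unadjusted p under 0.05. Leaving out control mouse 2 gave 0.090 and leaving out knockout mouse 4 gave 0.046.

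Icam2 (chr11:106377656-106388139), a ligand of the leukocyte integrin LFA-1 that resting endothelium carries, had 3.90, 3.07, 5.54 and 5.12 FPKM in knockout mice 1 to 4. In control mice it was 4.70, 5.61, 5.29 and 4.63 FPKM. Knockout mice 1 and 2 lay below every control mouse, and knockout mice 3 and 4 lay among them. The transcript is short, and each library held 71 to 129 counts of it. The fold change from counts was -0.40 ± 0.25 (edgeR adjusted p = 0.50). It was -0.20 without control mouse 2 and -0.03 with the length trend removed.

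Icam1 (chr9:21015940-21028814) encodes the inducible ligand of the same integrin, and the gene lies 0.6 kb from Icam4 and 3.2 kb from Icam5. It was the second most abundant member in both groups. Knockout mice 1 to 4 had 13.6, 15.3, 16.02 and 23.3 FPKM, and control mice 1 to 4 had 25.1, 13.5, 19.4 and 16.5 FPKM. The highest mouse of each group, knockout mouse 4 and control mouse 1, stood above the rest, and the remaining 6 mice spanned 13.5 to 19.4 FPKM. CPM, the scale behind the fold changes, ordered the mice differently. On it knockout mice 1 to 3 had 33.4, 36.2 and 38.0 and lay below every control mouse (40.1 to 61.5), while knockout mouse 4 had 54.9. Means were 17.1 ± 4.29 and 18.6 ± 4.94 FPKM (exact permutation p = 0.629). The fold change from counts was -0.28 ± 0.20 (edgeR adjusted p = 0.52), with a 95% confidence interval of the fold from 0.604 to 1.13. It was -0.15 without control mouse 1 and -0.45 without knockout mouse 4. In limma on FPKM the fold change was -0.11 and changed sign without control mouse 1 (0.034).

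Vcam1 (chr3:116110020-116129688) encodes the endothelial ligand of the integrin VLA-4. Its level was 6.48, 6.79, 8.66 and 10.1 FPKM in knockout mice 1 to 4 and 9.65, 9.93, 10.2 and 6.33 FPKM in control mice 1 to 4. Control mouse 4 held the lowest FPKM of all 8 mice, while the other 3 control mice lay close together. On CPM control mouse 4 was lowest as well, at 20.3, but the other 3 were not close, at 31.4, 45.3 and 34.1 in control mice 1 to 3. Means were 8.00 ± 1.68 and 9.04 ± 1.82 FPKM (exact permutation p = 0.429). The fold change from counts was -0.37 ± 0.25 (edgeR adjusted p = 0.51). It was -0.18 without control mouse 2 and -0.55 without control mouse 4.

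Sele (chr1:164039614-164058487) was the least abundant member in both groups. Knockout mice 1 to 4 had 2.05, 2.14, 2.01 and 3.18 FPKM, and control mice 1 to 4 had 3.83, 1.18, 2.62 and 2.92 FPKM. The first 3 knockout mice lay between 2.01 and 2.14 FPKM and below 3 of the 4 control mice, whereas knockout mouse 4 lay among the controls and control mouse 2 below all. These levels rested on 139 to 233 counts per knockout mouse and on 76.0 to 260 per control mouse. Means were 2.35 ± 0.559 and 2.64 ± 1.10 FPKM (exact permutation p = 0.686). The fold change from counts was -0.30 ± 0.25 (edgeR adjusted p = 0.54), and it was -0.50 without knockout mouse 4 and -0.14 without control mouse 1. With the length trend removed it was -0.42 (edgeR adjusted p = 0.53), and without control mouse 2 as well it was -0.50 (edgeR adjusted p = 0.78).

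Selp (chr1:164115264-164150026) was measured at 2.77, 2.57, 2.85 and 4.20 FPKM in knockout mice 1 to 4 and at 4.99, 1.49, 2.74 and 4.38 FPKM in control mice 1 to 4. Control mice 1 and 4 and knockout mouse 4 were high, the other knockout mice and control mouse 3 lay between 2.57 and 2.85 FPKM, and control mouse 2 was lowest. The order of the mice was thus much like that for Sele, with a Spearman rho of 0.976 and a Pearson r of 0.911 over the 8 mice on log2 CPM. Without the 2 mice farthest from the median of Sele, r was 0.792 (n = 6). Means of Selp were 3.10 ± 0.744 and 3.40 ± 1.59 FPKM, and the fold change from counts was -0.24 ± 0.29 (edgeR adjusted p = 0.64). On FPKM its fold change was -0.04 in limma and changed sign when control mouse 1 (0.14), control mouse 4 (0.08) or knockout mouse 2 (0.02) was left out.

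Ackr1 (chr1:173331886-173333503), whose product binds inflammatory chemokines on venules, had the fold change farthest from 0 of the members in the edgeR fit of counts with all mice. Knockout mice 1 to 4 had 5.99, 5.48, 6.26 and 10.0 FPKM, and control mice 1 to 4 had 8.81, 9.77, 7.70 and 7.87 FPKM. The first 3 knockout mice lay below every control mouse, and knockout mouse 4 lay above every control mouse. Means were 6.93 ± 2.07 and 8.54 ± 0.956 FPKM (exact permutation p = 0.2). The fold change from counts was -0.50 ± 0.26 (edgeR adjusted p = 0.50), the smallest p of the members in that fit but rank 2777 among the 17124 genes tested. In limma on FPKM, and with the replicate block, Cdh5 had a smaller p than Ackr1. Without knockout mouse 4 the groups did not overlap, and the exact permutation test gave p = 0.0286, the smallest that 3 mice against 4 allow, while the edgeR adjusted p was 0.67 at a fold change of -0.72. With the trend of transcript length removed and all mice kept, the fold change was only -0.10. Without control mouse 2 it was -0.28, and Sele (-0.45), Selp (-0.43) and Icam1 (-0.30) then lay farther from 0. Part of the Ackr1 reads cannot be told from those of another gene. In GENCODE, 361 of its 1405 exon bases (25.7%) overlap exons of Cadm3 on the same strand, and 289 of the 1420 stretches of 50 bases in its transcripts (20.4%) also occur in Cadm3. Cadm3 was listed at 28.3, 27.4, 30.6 and 47.1 FPKM in knockout mice 1 to 4. In control mice 1 to 4 it was 31.3, 14.4, 30.1 and 30.5 FPKM. Like Ackr1, it was thus highest in knockout mouse 4, and what part it has in the Ackr1 values was not tested. Of the other members, Icam1 overlaps an exon of an opposite-strand gene over 11.7% of its exon bases, Selp overlaps 2 such genes over 9.93% and 4.21%, and Vcam1 one over 0.688%. Whether the counting used strand is not stated.

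**Figure D2:**
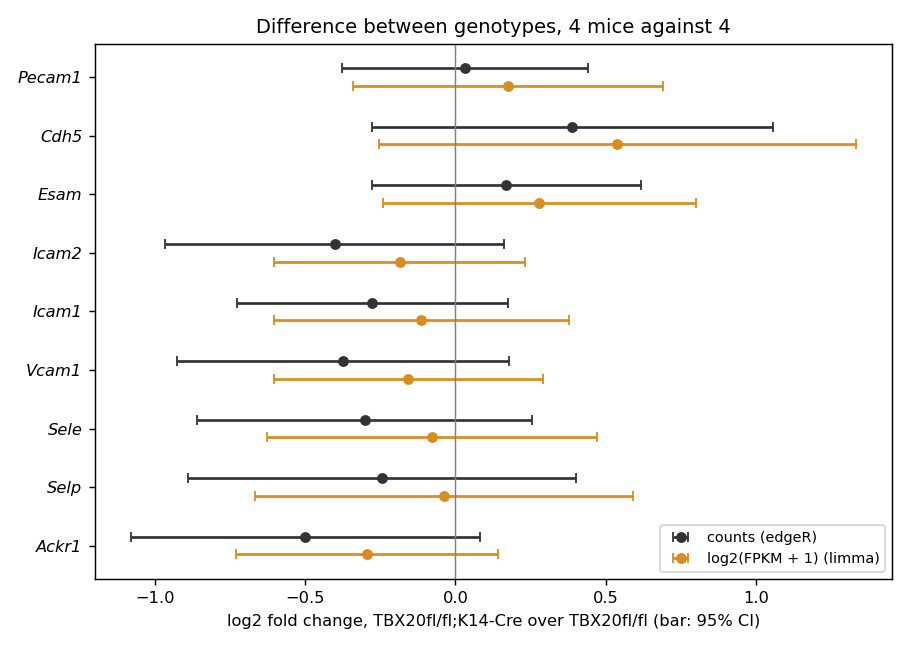
Log2 fold change (horizontal axis) of each of the 9 genes, TBX20fl/fl;K14-Cre over TBX20fl/fl, from counts with edgeR (black) and from log2(FPKM + 1) with limma (orange), with 95% confidence intervals. These fits do not pair the mice, and all 18 intervals include 0, and the widest from counts, that of Cdh5, runs from -0.28 to 1.06.

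These intervals give the sizes of difference that the 8 mice leave possible. On the linear scale of counts they allow Sele to lie between 0.551 and 1.19 times its control level, Selp between 0.540 and 1.32 times, Vcam1 between 0.526 and 1.13 times and Ackr1 between 0.474 and 1.06 times. For Cdh5 they reach from 0.825 to 2.08 times the control level. These are intervals of the fits without pairs. With same-numbered mice as a block, the 95% interval of the log2 fold change of Cdh5 did not include 0, from counts (0.054 to 0.83, edgeR adjusted p = 0.40) or from FPKM (0.059 to 1.02, limma adjusted p = 0.38). That block rests on a pairing inferred from these same data and not on the stated design. A p that misses the threshold does not show that the genotypes were alike.

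Transcript length went with the level of several members in control mouse 2. Relative to the mean of the other 3 control mice, its FPKM was 1.20 times as high for Ackr1 and 1.15 times for Icam2, the shortest transcripts at 1.11 and 1.19 kb. It was 0.300 times for Cdh5, 0.378 times for Sele and 0.369 times for Selp, which are 3.94, 3.59 and 3.39 kb long. Vcam1, at 3.35 kb, did not follow this order and lay at 1.14 times. When a smooth trend with length was removed from each library, the fold changes of the 2 shortest genes moved towards 0, from -0.50 to -0.10 for Ackr1 and from -0.40 to -0.03 for Icam2, and that of Cdh5 went from 0.39 to 0.25. Those of Vcam1 and Sele moved away from 0, from -0.37 to -0.52 and from -0.30 to -0.42, and Esam went from 0.17 to 0.31. No adjusted p of a member fell below 0.53 in that fit (edgeR).

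**Figure D3:**
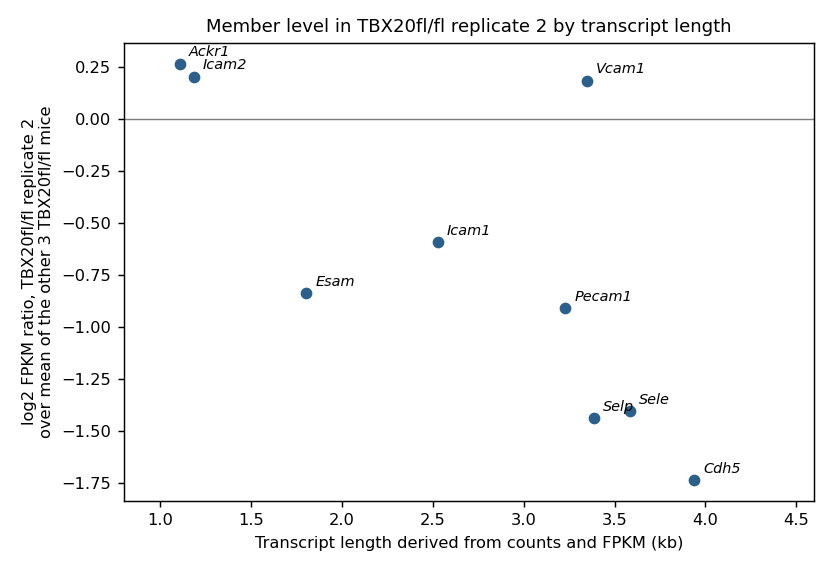
Log2 ratio of FPKM in control mouse 2 to the mean of the other 3 control mice (vertical axis) against the transcript length of each of the 9 genes in kb (horizontal axis). Cdh5, the longest at 3.94 kb, lay lowest, at 0.300 times the other mice, and Ackr1, the shortest, lay highest.

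The order of levels was nearly the same in both groups. In knockout mice the means fell in the order Pecam1, Icam1, Cdh5, Esam, Vcam1, Ackr1, Icam2, Selp and Sele, and this order held between each gene and the next within all 4 mice. Across mice only Pecam1 was separate from its neighbour, while the ranges of every other pair of neighbours overlapped. In control mice the order was Pecam1, Icam1, Cdh5, Vcam1, Ackr1, Esam, Icam2, Selp and Sele. Icam1 was there separate from Cdh5, the ranges of all other neighbours overlapped, and Esam lay above Ackr1 in 3 of the 4 mice although its mean was lower. Without control mouse 2, Esam returned to the fourth place.

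To set the inducible and venular genes against the amount of endothelial RNA in each sample, their log2 FPKM was taken relative to the mean log2 FPKM of Pecam1, Cdh5, Esam and Icam2. This difference was lower on average in knockout mice for all 5 genes, with the groups overlapping for each, and no test was made on it. All 5 share the same reference, so they are not 5 separate observations. In limma on log2(FPKM + 1), the reference genes had fold changes of 0.54 (Cdh5), 0.28 (Esam), 0.18 (Pecam1) and -0.19 (Icam2). Those of Sele and Selp themselves were only -0.08 and -0.04, and those of Icam1, Vcam1 and Ackr1 were -0.11, -0.16 and -0.29. For Ackr1 it was -0.81 ± 0.27 in knockout mice and -0.25 ± 0.55 in control mice (SD, n = 4 each). The Ackr1 values were -0.99, -0.63, -1.09 and -0.53 in knockout mice 1 to 4 and -0.39, 0.56, -0.56 and -0.62 in control mice 1 to 4. Control mouse 2 alone lay above 0, and knockout mouse 4 lay within the control range. Icam1 stood at 0.50 ± 0.32 against 0.84 ± 0.30, and Vcam1 at -0.58 ± 0.23 against -0.19 ± 0.62. The values for Sele were -2.36 ± 0.34 and -2.06 ± 0.37, and those for Selp were -1.96 ± 0.24 and -1.72 ± 0.45. Differences between the means were thus -0.29 for Sele, -0.24 for Selp, -0.34 for Icam1, -0.39 for Vcam1 and -0.55 for Ackr1. Without control mouse 2 they were -0.44 for Sele, -0.38 for Selp, -0.28 for Icam1, -0.13 for Vcam1 and -0.28 for Ackr1, so the order of the genes changed. The reference genes include the long transcripts that were low in control mouse 2, which raises the values of that mouse for Vcam1, Icam1 and Ackr1.

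**Figure D4:**
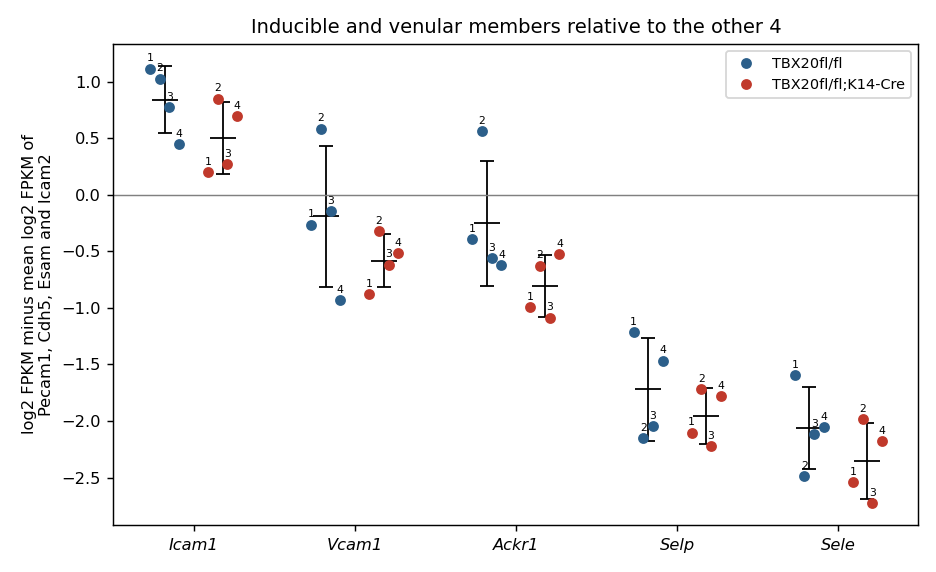
Log2 FPKM of the 5 inducible and venular genes minus the mean log2 FPKM of Pecam1, Cdh5, Esam and Icam2 (vertical axis) in each mouse, with control mice in blue, knockout mice in red, replicate numbers above the points and black bars for mean and SD (n = 4). The group means differ by -0.24 to -0.55 (by -0.13 to -0.44 without control mouse 2), and the groups overlap for every gene.

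How far the members varied together depended on control mouse 2. Without that mouse (n = 7 mice, log2 CPM), the median Pearson r was 0.818 over the 6 pairs among Pecam1, Cdh5, Esam and Icam2, 0.812 over the 10 pairs among Icam1, Vcam1, Sele, Selp and Ackr1, and 0.389 over the 20 pairs across both sets. The ranges over pairs were 0.613 to 0.916, 0.245 to 0.942 and 0.215 to 0.628, so that they overlapped. With all 8 mice these medians were 0.439, 0.599 and 0.144, and the lowest values were -0.42, -0.23 and -0.50. Single values without control mouse 2 were, at the upper end, 0.942 for Sele with Ackr1, 0.916 for Cdh5 with Esam and 0.916 for Icam1 with Sele. These are descriptions over mice that share a library preparation, a genotype contrast and length trends, and the members were not drawn at random.

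Among the 13298 genes whose mean count reached 50, likeness to a member was ranked by the smallest Pearson r left when each of the 8 mice was left out in turn. Relb, which encodes an NF-kappa-B subunit, was nearest to Sele (r = 0.964, Spearman rho = 0.929, smallest r 0.942), followed by Clic4 (r = 0.952) and Jak2 (r = 0.955). It was also nearest to Selp (r = 0.959, smallest r 0.934), followed by Letm1 (r = 0.952) and Tnip1 (r = 0.947). Nearest to Cdh5 were Sema6c (r = 0.996), Smap2 (r = 0.990) and Cbfa2t3 (r = 0.988), where control mouse 2 was the farthest point. Without the 2 mice farthest from the median of the member, r was 0.905 for Relb with Sele, 0.938 for Relb with Selp and 0.978 for Sema6c with Cdh5. With the length trend removed, the nearest genes were Stx11, Mt1 and Osmr for Sele and Cst7, Bcl6 and Zfp972 for Selp, so Relb was not among them, while Smap2 and Sema6c stayed among the 3 nearest to Cdh5. The highest of very many correlations over 8 mice are high by selection, and they carry no p.

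Genes related to the members were taken from 6 lists, of which 60 of 61 genes were tested. None passed the adjusted threshold in edgeR. Of the 18 further endothelial genes, 5 were lower and 13 higher in the fit, with a median of 0.21 against 0.03 over all genes tested and -0.28 over the members, and none had an unadjusted p under 0.05. The smallest p among them belonged to Egfl7, an endothelial secreted factor, at -0.33 ± 0.17 (edgeR adjusted p = 0.50), and its fold change was -0.045 with the length trend removed. The median of the list was 0.05 without control mouse 2, 0.07 with the length trend removed and -0.02 with both.

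Of the 11 leukocyte partners of the members, 3 were lower and 8 higher, with a median of 0.04 (-0.095 to 0.17 leaving out each mouse). These partners include the LFA-1 chain Itgal, at 2.78 ± 0.69 FPKM in knockout and 2.23 ± 0.85 FPKM in control mice, and the VLA-4 chain Itga4, at 3.69 ± 1.07 and 2.94 ± 1.35 FPKM. Of 5 enzymes that build selectin ligands, 1 was lower (St3gal4, -0.26 ± 0.13) and 4 higher, with a median of 0.17 and no unadjusted p under 0.05.

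Among 9 genes of junctions and leukocyte passage, 5 were lower and 4 higher, with a median of -0.01. Cd47, the ligand of SIRPA that takes part in transmigration, had an unadjusted p under 0.05, with 54.1 ± 5.85 FPKM in knockout and 65.5 ± 7.10 FPKM in control mice and a fold change of -0.41 ± 0.18 (edgeR adjusted p = 0.50). It was -0.25 without control mouse 2 and -0.39 with the replicate block, and in both the unadjusted p was no longer under 0.05. Of 9 tested relatives of the members, 4 were lower and 5 higher, with a median of 0.11. Ackr3, an atypical receptor of CXCL12, was the only one with an unadjusted p under 0.05, at 23.5 ± 5.12 against 30.04 ± 3.36 FPKM and a fold change of -0.55 ± 0.22 (edgeR adjusted p = 0.50). This was lost as well, at -0.36 without control mouse 2 and at -0.54 with the replicate block. Icam4 and Icam5, the neighbours of Icam1, were hardly detected, with mean levels of 0.365 and 0.198 FPKM in knockout and 0.570 and 0.143 FPKM in control mice.

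The 8 cytokines that act on endothelium had the lowest median, -1.33, with 7 genes lower, 1 higher and 5 with an unadjusted p under 0.05, all 5 lower, where 5.91% of all genes tested were called lower and 47.5% had a fold change below 0. Il1a, an interleukin-1 that keratinocytes hold, was the only one of them without overlap between the groups, at 14.2, 16.1, 14.7 and 13.1 FPKM in knockout mice 1 to 4 and 18.9 to 26.5 FPKM in control mice, and had a fold change of -0.81 ± 0.22 (edgeR adjusted p = 0.50). Il1b was listed at 13.0 to 58.6 FPKM in knockout and 57.1 to 198 FPKM in control mice, with a fold change of -2.06 ± 0.56, and Tnf at 1.37 to 3.79 and 3.09 to 7.18 FPKM, with -1.29 ± 0.39 (edgeR adjusted p = 0.50 for both). Osm, a cytokine of the IL-6 family, had a fold change of -1.50 ± 0.46 and Ifng, with at most 11 counts in a mouse, one of -1.58 ± 0.67 (edgeR adjusted p = 0.50 for both). Without control mouse 2 the fold change of Osm was -0.92, and that of Ifng was -1.16 and no longer under an unadjusted p of 0.05. Ifng also lost this with the length trend removed (-1.18). The median of this list was -0.76 without control mouse 2 and with the length trend removed. In the same fit Sele, Selp, Icam1 and Vcam1, which TNF and IL-1 raise in endothelium, had fold changes of -0.24 to -0.37. Those of Icam2 and Ackr1 were -0.40 and -0.50, and those of Pecam1, Esam and Cdh5 were 0.03, 0.17 and 0.39. Whether the cytokine levels bear on any member was not tested.

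**Figure D5:**
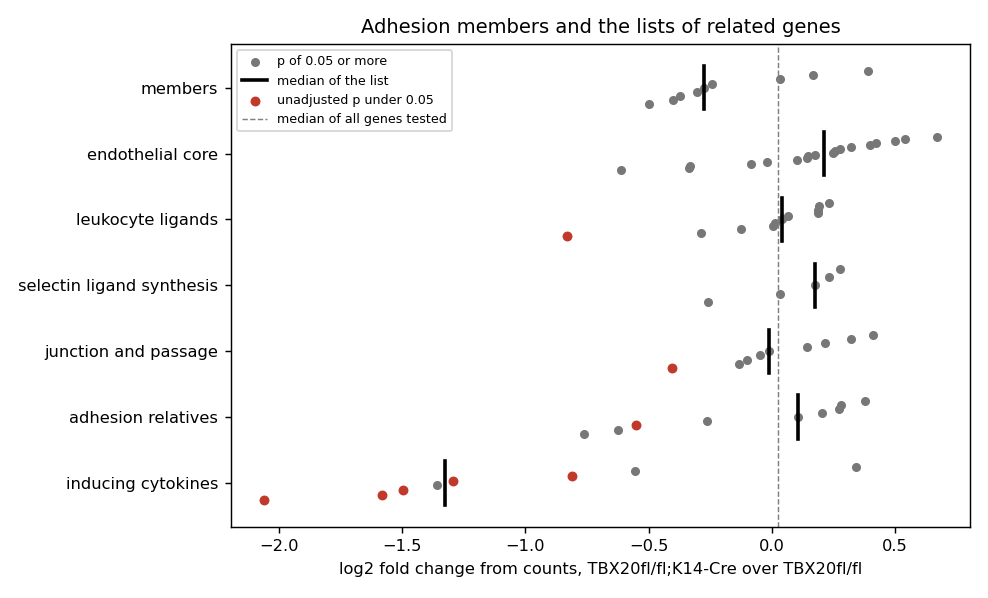
Log2 fold change from counts (horizontal axis) of each gene tested in the members and in the 6 lists of related genes (rows), with red points for an unadjusted p under 0.05, black bars for list medians and a dashed line for the median of all genes tested. The 9 members have no red point, and the cytokine list has 5, all below 0.

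Markers of other cell types were summed as FPKM to show what moved beside the members. Neutrophil markers were below 0 in the fit for 8 of 8 genes, Mmp9 among them at -0.0022 ± 0.37, and 5 had an unadjusted p under 0.05. Their sum ranged from 111 to 301 in knockout and from 294 to 979 in control mice, and most of it was S100a8, at 75.5 ± 30.8 FPKM in knockout and 274 ± 174 FPKM in control mice (SD, n = 4 each), and S100a9, at 83.1 ± 37.2 and 296 ± 187 FPKM. Macrophage and monocyte markers were lower for 6 of 8, 4 of them with an unadjusted p under 0.05, with sums of 925 to 1393 and 1117 to 2247 that were mostly Lyz2, at 901 ± 182 and 1346 ± 519 FPKM. Markers of platelets, which also hold P-selectin, were lower for 5 of the 6 tested, 2 of them with an unadjusted p under 0.05, with sums of 85.1 to 113 and 78.1 to 166 that were mostly Pf4. Erythroid markers were lower for 4 of 5, none with an unadjusted p under 0.05, with sums of 783 to 1613 and 457 to 1644. The sum of lymphatic endothelial markers did not overlap, at 270 to 319 and 350 to 543, but 4 of its 6 genes were lower (1 with an unadjusted p under 0.05) and 2 higher, and most of it was Ccl21a, which has near-identical copies in the genome, at 197 ± 23.2 and 312 ± 101 FPKM. Mural cell markers were lower for 2 and higher for 6 of 8, with sums of 168 to 206 and 102 to 177. Keratinocyte, skeletal muscle, adipocyte and fibroblast sums overlapped between groups. No mural, keratinocyte, skeletal muscle or adipocyte marker had an unadjusted p under 0.05, and no marker of any list passed the adjusted threshold in edgeR. Of 6 fibroblast markers 2 were lower and 4 higher, and 2 of the latter had an unadjusted p under 0.05, the collagen genes Col1a1 (1.10 ± 0.39) and Col1a2 (0.75 ± 0.28, edgeR adjusted p = 0.50 for both). No marker of any list was at 0 in all mice. What part these cells have in the members' levels was not tested.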

How the data were processed

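Whole cheek skin was sequenced by the authors as oligo(dT)-selected RNA with single-end 50-base reads, filtered with SOAPnuke and aligned with HISAT. The counting program and strandedness are not given in the sources used here. The authors deposited estimated counts, which were not normalized, and FPKM values, made with the Dr. Tom platform, for 18901 genes, with chromosomes of GRCm38. The deposited TPM values, size-factor-scaled counts and columns of the authors' own comparisons (fold changes, p-values and q-values) were not used.

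Counts were rounded and tested with edgeR 4.0.16 (quasi-likelihood, TMM) in R 4.3.3 in genes with at least 10 counts over 8 mice, log2(FPKM + 1) with limma 3.58.1 where the mean FPKM reached 0.1, and FPKM of the members with two-sided exact permutation tests, whose smallest p is 0.0286. DESeq2 1.42.0 was an alternative. At these depths 3 counts equal 0.151 to 0.187 CPM, for counting error only. The fits were tested on simulated data. Other tables used Python 3.11.15.

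The members and lists were chosen with earlier results of these data known. Named genes were the 9 members, list genes with an unadjusted p under 0.05 (at most 8) or the smallest p of a list with none, and the 3 genes nearest to Sele, Selp and Cdh5. 1 gene that this rule names is not reported here. Genes named beyond these serve as descriptions chosen after their values were seen. Same-numbered mice deviated together (r of 0.160 to 0.405 in the 4 pairs, over 13298 genes), and each pair passed 0.1, so the numbers were taken as pairs. This rests on the data alone, since the mice are different animals, and it is weak: 5 of 8 mice correlated best with their own number, and the highest r was between knockout mouse 4 and control mouse 1 (0.426). Transcript length was derived from counts and FPKM, and its trend was a spline with 5 degrees of freedom over genes whose mean count reached 50.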

Additional observations from a re-analysis of the deposited data

Results flagged for a closer look

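Among 38 groups of 4 FPKM values examined (members and named list genes), 3 held a mouse whose gap to the nearest other mouse exceeded Dixon's critical value as a share of the group's range, and chance gives about 1 in 20. Control mouse 4 had 6.33 FPKM of Vcam1, against 9.65 to 10.2 in the other control mice. On CPM the other control mice lay wider apart, at 31.4 to 45.3, against 20.3 in control mouse 4. Knockout mouse 4 had 3.18 FPKM of Sele, against 2.01 to 2.14 in the other knockout mice. The same mouse had 31.1 FPKM of Ackr3, against 19.9 to 21.8.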

How the results depend on the processing

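No member passed the adjusted threshold under any alternative, including the replicate block. At an unadjusted p under 0.05, alternatives of members passed in 7 of 144 refits from counts: Cdh5 with the block (0.031) and with the block and length trend removed (0.030), Esam with the latter (0.024), Vcam1 without control mouse 4 (0.030), Icam1 and Ackr1 without knockout mouse 4 (0.038 and 0.019), and Sele with the length trend removed and without control mouse 2 (0.037). In limma 2 of 108 passed, Cdh5 with the block (0.033) and Ackr1 without knockout mouse 4 (0.025). In the exact tests it was Ackr1 without knockout mouse 4 alone (-2.63 FPKM, exact permutation p = 0.0286). The block ended the unadjusted calls of Cd47 and Ackr3. With the replicate block, fold changes were 0.44 for Cdh5 (edgeR adjusted p = 0.40), -0.29 for Sele and -0.50 for Ackr1. The fold change of Pecam1 reversed to -0.055 with the length trend removed, -0.070 with the block as well, and -0.093 with the length trend removed and without control mouse 2, an alternative chosen after seeing the data. DESeq2 called 10 genes where edgeR called 0. Genes with an unadjusted p under 0.05 in limma numbered 1046, and 1709 with the block. Leaving out each mouse gave 553 to 1914 in limma and 823 to 2405 in edgeR, against 1431 with all mice.

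Leaving out each mouse gave, from counts, -0.45 to -0.15 for Icam1, -0.53 to -0.20 for Icam2, -0.55 to -0.18 for Vcam1, -0.50 to -0.14 for Sele, -0.43 to -0.04 for Selp, -0.066 to 0.15 for Pecam1, 0.16 to 0.54 for Cdh5, -0.72 to -0.28 for Ackr1 and 0.05 to 0.31 for Esam. From FPKM (limma) the ranges that crossed 0 were -0.27 to 0.034 for Icam1, -0.30 to 0.078 for Sele, -0.29 to 0.14 for Selp and -0.041 to 0.31 for Pecam1. Differences in mean FPKM that crossed 0 were -3.65 to 0.59 for Icam1, -0.778 to 0.105 for Sele, -0.939 to 0.228 for Selp and -0.653 to 6.19 for Pecam1, and for Ackr1 the range was -2.63 to -1.12. In each of these fits 0 genes passed the adjusted threshold.

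Medians of the lists moved by more than 1 SD between mice for junction genes (-0.11 to 0.12 leaving out each mouse, and 0.074 with the length trend removed and without control mouse 2), for relatives of the members (-0.042 with the length trend removed, -0.034 with the block as well) and for cytokines (-0.76 with the length trend removed and without control mouse 2). The cause was not tested. Depth limits Icam2, Sele, Selp and Ackr1 most, at 71 to 332 counts per mouse.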
